A study of Mus musculus with 4 samples.

Results

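The proto-oncogene Myc and the 3 Mb around it, from 60.8 to 63.8 Mb of mouse chromosome 15 in the mm9 build, were examined for p63 binding and for histone H3 acetylated at lysine 27 (H3K27ac) in cells of the salivary gland. The limits of the region are positions set around the gene, with earlier results of these data known, and no peak value enters the rule. Myc was taken at about 61.817-61.821 Mb. Every peak whose midpoint fell inside the region was counted, and it held 12 of the 4130 p63 peaks and 291 of the 183757 H3K27ac peaks of the genome. The cells were primary epithelial progenitors from the salivary gland of adult mice aged 12 weeks with wild-type p63. Chromatin immunoprecipitation followed by sequencing (ChIP-seq) gave 4 libraries in 4 groups of 1, namely a ChIP with the monoclonal p63 antibody 4A4 and a ChIP for H3K27ac, and a separate input for each. With 1 library in each group there was no replicate error, so no p-value is given. Intervals are 95% intervals that cover counting error only. The deposited lists give positions without read numbers or scores, so sequencing depth is unknown and a peak's strength was not measured.

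Myc encodes a basic helix-loop-helix transcription factor that drives cell growth and proliferation. It sits in a large gene desert, and in other tissues (blood stem cells, T cells and the embryonic face among them) its expression depends on enhancers scattered far into that desert, each active in its own cell types. p63 is a p53-family transcription factor of basal and progenitor cells of stratified and glandular epithelia, and H3K27ac marks active promoters and enhancers. In the RefSeq annotation of the GRCm38 build, which was used for gene order only, A1bg is the nearest protein-coding gene before Myc and the gasdermin gene Gsdmc the nearest after it. Between A1bg and Myc that annotation lists 7 genes that code for no protein, 4 of them long non-coding RNAs. Between Myc and Gsdmc it lists 16, 9 of them long non-coding RNAs, the first being Pvt1. Upstream below means the side of lower coordinates, towards A1bg, and downstream the side of higher coordinates, towards Pvt1 and Gsdmc.

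Most of the Myc position (82.2%) lay under H3K27ac peaks, and it carried no p63 peak. The 7 H3K27ac peaks within 5 kb of Myc formed 1 block at chr15:61815267-61822945, in which 6046 of 7679 bases (78.7%) were covered. The widest of them, at chr15:61817166-61819993, spanned 2828 bases over most of the Myc position and ranked 157 by width among all 183757 H3K27ac peaks. A second wide peak of 1426 bases, at chr15:61815267-61816692, lay just upstream of the Myc position. The other 5 were 189 to 499 bases wide, and 3 of these lay at or beyond the 3′ end of Myc. When peaks at most 1000 bases apart were joined into domains, the Myc block ranked 254 by span and 188 by covered bases among 139150 domains. The block stood alone: the next H3K27ac peak was 19.6 kb away upstream and 22.9 kb away downstream. The nearest p63 peak was 49.6 kb downstream of Myc, and the nearest upstream was 74.6 kb away.

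**Figure D1:**
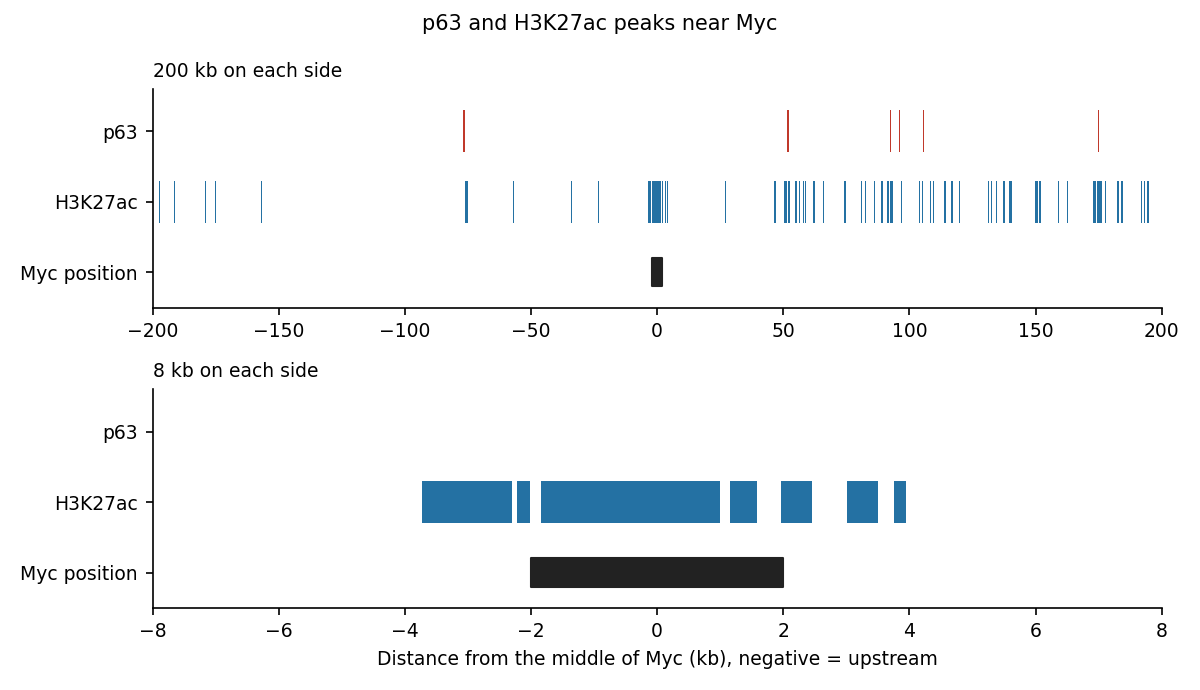
p63 peaks (red), H3K27ac peaks (blue) and the Myc position (black) by distance from the middle of Myc in kb, over 200 kb on each side (upper) and 8 kb on each side (lower). In the upper map a peak under 0.5 kb is drawn at 0.5 kb, so the black bar and the peaks there are not to the same precision as in the lower map. The 7 H3K27ac peaks at Myc form an isolated block, no p63 peak lies in it, and 5 p63 peaks lie downstream among dense H3K27ac peaks, against 1 upstream.

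Most p63 sites within 200 kb of Myc lay downstream of it. There were 5 p63 peaks downstream and 1 upstream, a ratio of 5 whose exact interval (0.559 to 236) includes equal density. The bound of 200 kb was chosen after the data were seen. The midpoints of the 5 lay within 123 kb. The first, at chr15:61870641-61870934, was 49.6 kb from Myc. It was the widest p63 peak of the region at 294 bases, which is wider than 94.8% of the p63 list. It shared 137 bases with an H3K27ac peak of 834 bases and had another H3K27ac peak, of 948 bases, 130 bases to its left. The second, at chr15:61911340-61911485, was 90.3 kb from Myc and lay wholly inside an H3K27ac peak of 371 bases. It was the only p63 peak of the region with its midpoint in H3K27ac.

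The remaining 3 of these 5 peaks shared no base with H3K27ac. The peak at chr15:61914925-61915047, the narrowest of the region at 123 bases, was 93.9 kb from Myc and 500 bases from the nearest H3K27ac peak. Its midpoint lay 3.57 kb from that of its p63 neighbour, the closest spacing in the region. The peak at chr15:61924211-61924431 was 103 kb from Myc and 117 bases from H3K27ac. The peak at chr15:61993652-61993796 was 173 kb from Myc and lay in a short gap, with H3K27ac 96 bases to its left and 117 bases to its right. The H3K27ac peak on its right, at chr15:61993914-61995313, was the third widest of the region at 1400 bases. H3K27ac covered between 776 and 3068 bases within 5 kb of the midpoints of these 5 peaks.

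Upstream, 6 p63 peaks lay from 74.6 to 879 kb from Myc and 1 of them touched H3K27ac. Nearest to Myc was a site at chr15:61742232-61742404, 74.6 kb away, with 322 bases to an H3K27ac peak of the smallest width in the list, 150 bases. H3K27ac covered 331 bases within 5 kb of this site, against a median of 631 (lower quartile 202) for the p63 peaks elsewhere. The site at chr15:61450766-61451004, 366 kb from Myc, shared 10 bases with an H3K27ac peak of 417 bases and had another peak 147 bases to its left. The site at chr15:61285624-61285868, 531 kb from Myc, lay between H3K27ac peaks 188 bases to its left and 23 bases to its right. The peak on its left, at chr15:61284126-61285435, was 1310 bases wide, and the domain that holds the site spanned 5076 bases.

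The 3 most distant upstream sites lay from 778 to 879 kb from Myc. The peak at chr15:61039076-61039217 had a single H3K27ac peak within 5 kb, 163 bases to its right. The peak at chr15:60958765-60958959 lay between H3K27ac peaks 60 bases to its left and 190 bases to its right. The outermost, at chr15:60937537-60937696, lay between H3K27ac peaks 110 bases to its left and 26 bases to its right. Counting the site 531 kb away, 3 of the upstream peaks touched no H3K27ac and had it within 1 kb on both sides. The site 173 kb downstream did too. That makes 4 of the 12 p63 peaks (33.3%, interval 13.8 to 60.9%), against 11.4% of the whole list, and the difference was not tested.

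Far downstream p63 was almost absent from the list. From the site 173 kb from Myc, the next p63 peak was at chr15:63552716-63552928, 1732 kb from Myc, so that 1559 kb passed without a p63 peak. This stretch was not without acetylation: it held 108 H3K27ac peaks that covered 24712 bases. Stretches of this length recur in the list: 409 of 4110 gaps between neighbouring p63 peaks (9.95%) were longer, and the median gap was 234 kb. The distant site shared 29 bases with an H3K27ac peak of 263 bases, and 423 bases were covered within 5 kb of its midpoint.

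All 12 p63 peaks of the Myc region lay close to H3K27ac, mostly beside it. Their distance to the nearest H3K27ac peak ran from 0 to 500 bases with a median of 43, against a median of 140 and an upper quartile of 2097 bases for the 4118 p63 peaks elsewhere. Within 1 kb of H3K27ac there were 12 of 12 (100%, Wilson interval 75.8 to 100%), against 68.3% elsewhere (interval 66.9 to 69.7%) and 68.4% in the whole list. The share that shared at least 1 base was close to the background: 4 of 12 (33.3%, interval 13.8 to 60.9%), against 34.8% elsewhere and 34.8% in the whole list. The midpoint lay inside H3K27ac for 1 of 12 (8.33%, interval 1.49 to 35.4%), and for 18.8% of the whole list.

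The peaks that touched no H3K27ac were split evenly by their flanks. Of the 12, 4 (33.3%, interval 13.8 to 60.9%) had H3K27ac within 1 kb on both sides, against 11.4% of the whole list, and 4 had it on 1 side, against 22.2%. Counted by domains of joined H3K27ac peaks, 8 of 12 (66.7%, interval 39.1 to 86.2%) shared a base with a domain or lay in a gap inside it, against 44.2% of the whole list. H3K27ac covered a median of 1575 bases within 5 kb of the 12 midpoints, with a lowest value of 285 and a highest of 3068, against a median of 631 for the p63 peaks elsewhere. In width the 12 peaks resembled the rest, with a median of 184 bases (range 123 to 294) against 181. The 12 sites share 1 locus and 1 library, so they are not independent, and these shares describe the locus and were not tested.

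**Figure D2:**
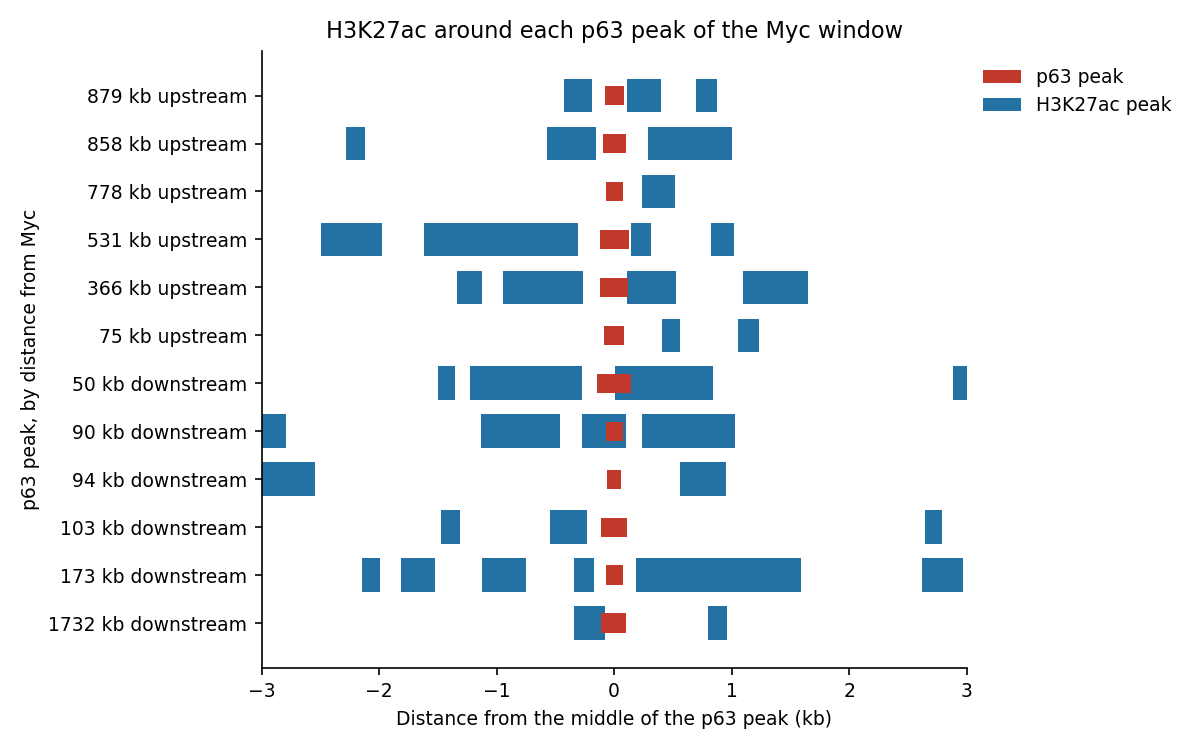
The 12 p63 peaks of the Myc region (red), each centred at 0, with the H3K27ac peaks around them (blue), over 3 kb on each side. Rows run from the most distant upstream site at the top to the most distant downstream site at the bottom. Each p63 peak has H3K27ac within 500 bases, 4 overlap it, and 4 others lie between H3K27ac peaks within 1 kb on both sides.

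Acetylation in the region was densest in 2 stretches. In steps of 100 kb from the middle of Myc, the 5 fullest of 31 steps held 40751 of 83908 covered bases (48.6%). The fullest was the first step downstream, 0 to 100 kb, with 26 H3K27ac peaks, 10723 covered bases and 3 p63 peaks. Because it starts at the middle of Myc, it takes in the downstream part of the Myc block. That part holds peaks of 420, 490, 499 and 189 bases and some of the peak of 2828 bases. The rank of this step rests partly on that block. The next step, 100 to 200 kb downstream, had the most H3K27ac peaks, 32, with 9044 covered bases and 2 p63 peaks. These steps stood above 98.2% and 97.3% of the 25697 steps of 100 kb in the genome by covered bases.

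The other dense stretch lay 300 to 600 kb upstream. Its steps covered 6605 bases (300 to 400 kb), 6874 bases (400 to 500 kb) and 7505 bases (500 to 600 kb), each above at least 94.8% of genome steps. They held 1, 0 and 1 p63 peaks in that order. A further step, 800 to 900 kb upstream, covered 6056 bases and held 2 p63 peaks. Between the upstream stretch and Myc, the steps from 100 to 300 kb upstream were sparse, with 5 H3K27ac peaks each and 1044 and 820 covered bases, near the genome median of 940.

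Further downstream coverage was lower than in the first 200 kb but did not fall evenly. It was 3639 bases at 200 to 300 kb, 3271 at 300 to 400 kb, 2089 at 400 to 500 kb and 1292 at 500 to 600 kb. It was then 2832 bases at 600 to 700 kb, 1706 at 700 to 800 kb and 342 at 800 to 900 kb. Some steps beyond 1 Mb again exceeded the genome median of 940, such as 1291 bases at 1700 to 1800 kb. Beyond 1 Mb downstream, 42 H3K27ac peaks covered 0.774% of the sequence, with a median width of 166.5 bases and none of 1000 bases or more. No step of 100 kb was without an H3K27ac peak (genome 9.64%), and of steps of 50 kb 4 of 61 were. Counted from the start of each window, the same held at 100 kb for 314 of 844 other windows of 3 Mb and for 129 of the 224 whose number of H3K27ac peaks was within 20% of that of the Myc region. Steps with a p63 peak covered a median of 6331 bases (8 steps, 1291 to 10723), against 1044 bases in steps without one (23 steps, 179 to 6874), and the ranges overlap.

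**Figure D3:**
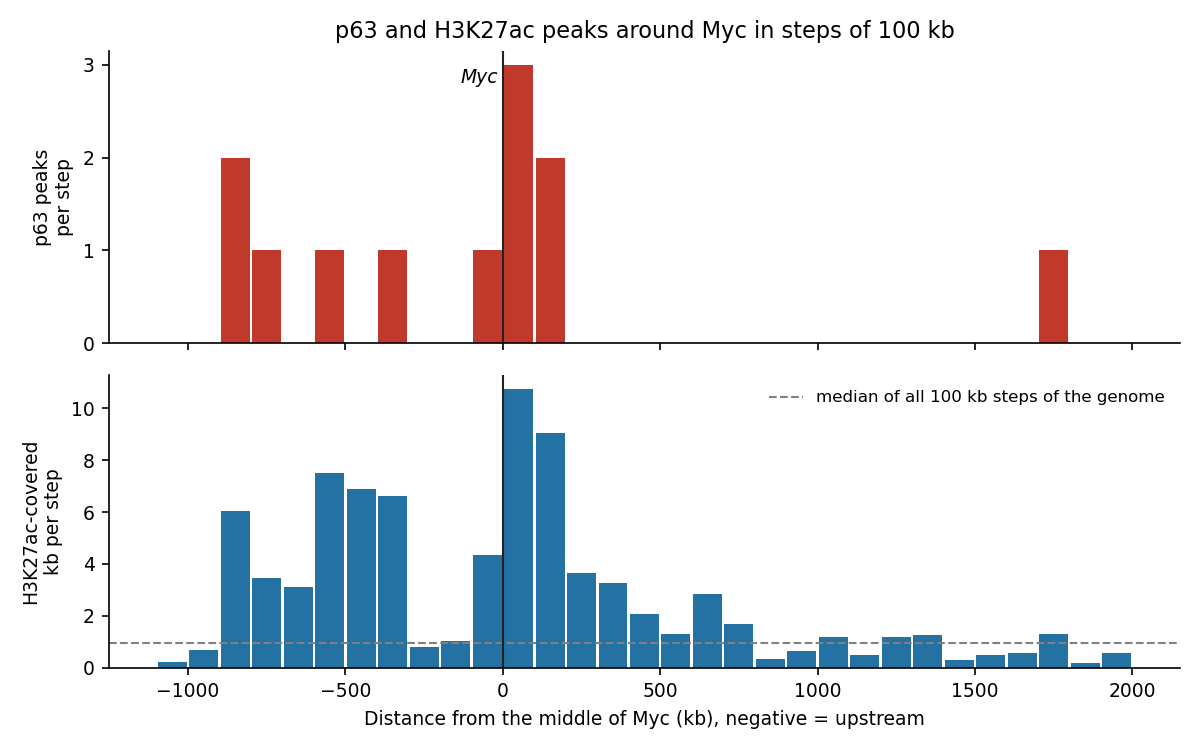
Number of p63 peaks (upper) and kb covered by H3K27ac peaks (lower) in steps of 100 kb by distance from the middle of Myc, upstream to the left. The outermost steps are cut by the ends of the region to 19 and 81 kb, and the dashed line is the median of all steps of the genome, 940 bases. H3K27ac is highest from 0 to 200 kb downstream and from 300 to 600 kb upstream, and 11 of 12 p63 peaks lie between 900 kb upstream and 200 kb downstream.

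Few single H3K27ac peaks of the region were wide. There were 8 of 291 with 1000 bases or more (2.75%, Wilson interval 1.40 to 5.33%), against 1.91% of the whole list, a difference within the interval. Besides the pair at Myc and the peak 173 kb downstream, 5 of them lay upstream: at chr15:61364627-61366024 (1398 bases), chr15:61141281-61142658 (1378 bases), chr15:60989419-60990750 (1332 bases), chr15:61284126-61285435 (1310 bases) and chr15:60969736-60970985 (1250 bases). The 10 widest were completed by chr15:61366623-61367601 (979 bases) upstream and chr15:61869563-61870510 (948 bases) downstream. None of these 10 shared a base with p63. In the whole list, most of whose peaks are narrower, 0.839% did, and at that rate none of 10 is the usual outcome. The share among wide peaks of the genome was not counted. The gap to p63 was 117, 130 and 188 bases for 3 of these 10 peaks and at least 10.8 kb for the others. The genome share of wide peaks with such short gaps was not counted, so no tendency of wide peaks to lie near p63 can be read from this. In the region 4 of 291 H3K27ac peaks (1.37%, interval 0.536 to 3.48%) shared a base with p63, against 0.839% of the whole list. The median H3K27ac width was 196 bases (quartiles 156 and 312.5) in the region and 191 (quartiles 155 and 260) elsewhere.

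Joined at 1000 bases, the 291 peaks gave 195 domains, of which 44 held more than 1 peak. After the Myc block, the longest was upstream at chr15:61362022-61368795, with 8 peaks over 6774 bases and a rank of 358 by span in the genome, and no p63 peak within 76.2 kb. The third, at chr15:61281690-61286765, held the p63 site 531 kb upstream. The fourth, at chr15:61439417-61443214 with 8 peaks over 3798 bases, had a p63 peak 7.55 kb away, and the fifth, at chr15:61991577-61995313 with 5 peaks over 3737 bases, held the p63 site 173 kb downstream. Next came domains of 3574 bases each at chr15:60988176-60991749 and chr15:61226647-61230220, and one of 3273 bases at chr15:61071656-61074928, all without p63. The ninth, at chr15:61449551-61452533 (2983 bases), held the p63 site 366 kb upstream, and the tenth, at chr15:61140000-61142658 (2659 bases), held none. So 3 of the 10 longest domains held a p63 peak (30%, Wilson interval 10.8 to 60.3%), against 18.0% of the 3221 domains of the genome at least as long as the tenth, a share inside that interval. Of the 10, 1 lay downstream and 8 upstream, whereas of all 195 domains 129 lay downstream and 65 upstream.

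Allowing gaps of up to 10 kb gave a different order. The longest cluster was then downstream, at chr15:61865437-61938970, with 28 H3K27ac peaks over 73.5 kb and 4 p63 peaks inside. It ranked 297 by span among 62921 clusters of the genome. The second, at chr15:61991577-62048785, was also downstream and held 20 H3K27ac peaks over 57.2 kb and 1 p63 peak. The third was upstream, at chr15:60948892-60991749, with 13 H3K27ac peaks over 42.9 kb and 1 p63 peak. The next in length, of 31.6, 30.8, 22.9 and 22.2 kb, held no p63 peak. The share of clusters of like length in the genome that held p63 was not counted. The Myc block gained no neighbour and kept its 7679 bases, which ranked 17194 by span and 968 by covered bases among these clusters.

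The 3 longest stretches without H3K27ac were named, a number set by rule. The longest, at chr15:63631194-63759602, ran for 128 kb in the far downstream part, and 0.899% of gaps between H3K27ac peaks in the genome were longer. The second, at chr15:61510760-61598290, ran for 87.5 kb and separated the dense upstream stretch from the side facing Myc. The third, at chr15:63297553-63380894, ran for 83.3 kb, from 1477 to 1560 kb downstream, and 2.17% of gaps in the genome were longer. None of the 3 held a p63 peak, which says little because all 12 p63 peaks of the region lay within 500 bases of H3K27ac.

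Taken over each whole side, H3K27ac peaks were less dense downstream than upstream, but the order depended on the distance and on how peaks were counted. There were 168 peaks over 1.979 Mb downstream (84.9 per Mb, exact Poisson interval 72.5 to 98.7) and 121 over 1.017 Mb upstream (119 per Mb, interval 98.7 to 142), a ratio of 0.714 (exact interval 0.561 to 0.909). With peaks joined at 1000 bases it was 1.02 (interval 0.751 to 1.40), from 129 domains downstream and 65 upstream. Within 1 Mb the counts were alike, 126 downstream and 120 upstream, with a ratio of 1.05 (interval 0.811 to 1.36). Within 200 kb, 57 peaks lay downstream and 12 upstream, a ratio of 4.75 (interval 2.52 to 9.73). Beyond 200 kb the ratio was 0.468 (interval 0.356 to 0.615), with 111 peaks downstream and 109 on the shorter upstream side. The bound of 200 kb was chosen after the data were seen, and the intervals of these 2 ratios do not account for that choice. The p63 peaks numbered 6 on each side, which gave 3.03 per Mb downstream and 5.90 per Mb upstream, a ratio of 0.514 whose interval (0.137 to 1.92) includes equal density.

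Set against other windows of 3 Mb, the Myc region had more p63 peaks than most, also than most windows with a like number of H3K27ac peaks. Among 844 other windows on a fixed grid, 786 had fewer than 12 p63 peaks, 20 had as many and 38 had more, so that the region stood at the 94.3 percentile (median of the others 4 peaks, quartiles 2 and 7). It had 291 H3K27ac peaks against a median of 196 in the others (74.2 percentile), and 83908 covered bases against a median of 47165 (79.1 percentile). On chromosome 15 itself, 3 of 32 other windows had more p63 peaks and 10 had more H3K27ac peaks. In the 224 windows with a like number of H3K27ac peaks (within 20%), p63 peaks ran from 0 to 16 with a median of 6 (quartiles 5 and 8); 209 had fewer than 12, 8 had as many and 7 had more.

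Per 100 H3K27ac peaks the region had 4.12 p63 peaks (interval 2.11 to 7.31), against 2.24 in the rest of the genome, which lies inside that interval, and a median of 2.21 (range 0 to 5.47) in those 224 windows. The spread of acetylation within the region was ordinary. On a grid counted from its start, its 5 fullest steps of 100 kb held 51.2% of the covered bases, against a median of 45.9% (range 31.5 to 70.9%) in the 224 windows, 59 of which had a higher share. Its fullest step covered 11401 bases, and 92 of the 224 windows had a fuller one. Windows were not matched for gene content.

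**Figure D4:**
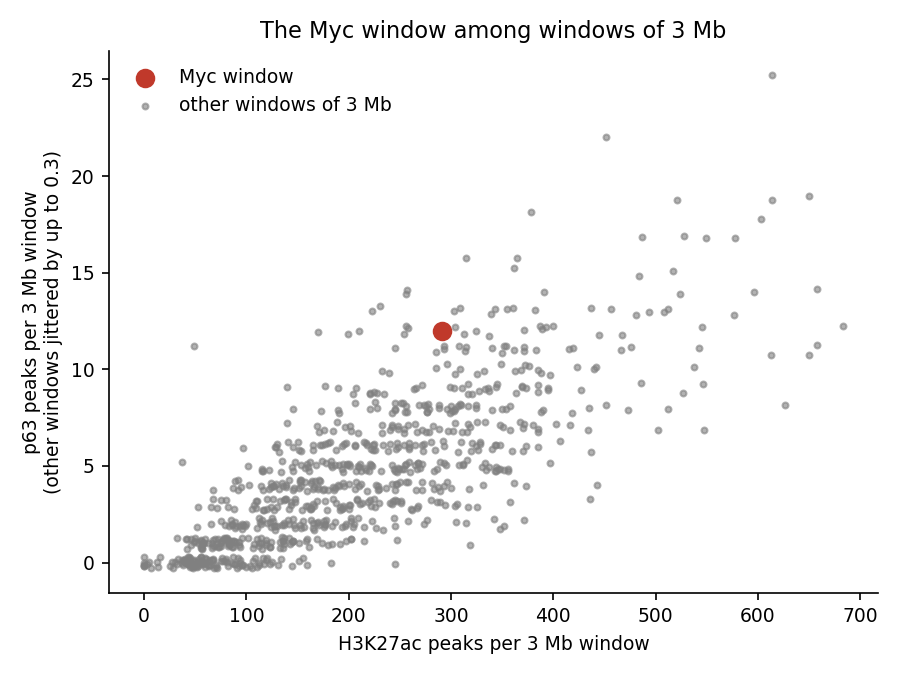
Number of p63 peaks against number of H3K27ac peaks in each window of 3 Mb. The Myc region (red) has 12 p63 and 291 H3K27ac peaks, and the 844 other windows (grey) are spread by up to 0.3 along the vertical axis so that equal counts can be seen. Among windows with a like number of H3K27ac peaks, the Myc region lies near the top of the range of p63 peaks.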

How the data were processed

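ChIP-seq was done on 4 libraries, 1 per group. The submitters' processing notes name Bowtie 1.1.1, MACS2 2.1.0 and the mm9 build. Settings, peak threshold and filters were not given in the sources used here. Files deposited by the authors list chromosome, start and end of the peaks of each ChIP against its input, with no score. A deeper library or looser threshold gives more and wider peaks. Myc was placed to the nearest 1 kb, and distances from it carry that error.

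Peaks were assigned by midpoint and distances run from edge to edge, with starts printed from 1. An overlap is 1 shared base or more. Domains join H3K27ac peaks at most 1000 bases apart. The 844 other windows of 3 Mb form a grid over the span of the peaks on every chromosome, and equal counts weigh 0.5 in percentiles. Intervals (95%) are Wilson, exact Poisson or exact binomial. Named by rule were all p63 peaks, the H3K27ac peaks within 5 kb of Myc, the 10 widest H3K27ac peaks, the 10 longest domains, the 5 fullest steps and the 3 longest stretches without H3K27ac; other steps and the clusters at 10 kb were named after their values were seen. The region and these lists were chosen with earlier results of these data known. Counting was checked on drawn peaks with planted overlaps. Since neither a genome nor an annotation of mm9 was used, no gene was assigned to a peak and no peak sequence is shown. Alternatives covered overlap, list parts, joined peaks, window grids and side lengths. Python 3.11.15 was used with scipy 1.17.1, numpy 2.4.6, matplotlib 3.10.9 and pandas 2.3.3.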

Additional observations from a re-analysis of the deposited data

How the results depend on the processing

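Of 54 alternatives to 13 results, 33 stayed within the counting interval of the value reported and 21 moved out of it. For counts and covered bases the limit was 1.5 times. Some of the 33 could not have moved. A share of 100% within 1 kb cannot fall at 2 kb or with joined peaks, and steps of 200 kb cannot be empty where no step of 100 kb is. The wider part of each list necessarily has fewer peaks: with the 2065 widest p63 peaks the region held 6 of them, and with the 91878 widest H3K27ac peaks or the first 91878 rows of that list it held 155 or 181. The percentile for p63 peaks was 89.1 on chromosome 15 alone and 92.4 with the widest p63 peaks. For H3K27ac peaks it was 68.8 on chromosome 15 alone, 84.7 with the first rows and 64.9 with joined peaks, and for covered bases 71.9 on chromosome 15 alone and 85.2 with the first rows. The share of p63 peaks on H3K27ac was 8.33% by midpoint, 8.33% with at least 0.5 of the p63 peak covered (1 of 12 each) and 66.7% with joined peaks, whose gaps then count as covered. All 12 stayed within 1 kb of H3K27ac except with the widest H3K27ac peaks, where the share was 91.7%. The p63 peaks per 100 H3K27ac peaks were 2.06 with the widest p63 peaks (1.12 in the rest of the genome) and 7.74 with the widest H3K27ac peaks (4.49 in the rest). The downstream over upstream ratio of H3K27ac density was 1.05 within 1 Mb, 0.549 with the widest peaks, 1.02 with joined peaks and 0.468 without 200 kb on each side of Myc. The same ratio for p63 was 0.0918 without those 200 kb, from 1 peak downstream and 5 upstream; this distance was chosen after seeing the data. The median H3K27ac width was 213 bases in the first rows (219 in the rest of the genome). The cause of these shifts was not tested beyond what each setting builds in. No paired analysis was possible because there was a single library in every group. Depth is unknown, so a place without a peak is not shown to lack p63 or acetylation.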
